A study of Mus musculus with 16 samples.

Results

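The genes described here encode the machinery that attaches the small ubiquitin-like modifier SUMO to proteins and removes it. All probes annotated to 8 genes were taken, namely Sumo2, Sumo3, Sae1, Uba2, Pias1, Pias3, Senp2 and Senp6. Of these 8 genes, 7 were read, by 13 probes in all, among 16593 genes and 25697 probes on the array. Uba2 was not analysed here.

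Conjugation begins when the SAE1-UBA2 heterodimer activates a SUMO protein, which passes to a conjugating enzyme and, often helped by a PIAS ligase, to a lysine of the target. SENP proteases trim SUMO precursors and cut SUMO from its targets. SUMO attached to the nuclear receptor PPARG, which drives fat cell gene expression and is the receptor for rosiglitazone, is known to lower the transcriptional activity of PPARG. The study's model places this modification in fat that lacks the hormone FGF21. The arrays measured mRNA of the machinery, and neither SUMO-conjugated PPARG nor any protein was measured.

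RNA came from epididymal white fat of mice of 4 to 5 months with diet-induced obesity, all on a mixed c57b6/sv129 background and all fed a high-fat diet for 10 weeks. The 4 groups were wild-type (WT) mice given vehicle, WT mice given rosiglitazone at 10 mg/kg over the last 2 weeks, Fgf21-KO mice given vehicle and Fgf21-KO mice given rosiglitazone in the same way. Each group had 2 pools of 2 mice, and each pool was hybridised to 2 arrays, which are repeats of 1 RNA, so n is 2 pools throughout. The labels do not state the design of the Fgf21 deletion or how rosiglitazone was given.

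Median array signals ran from 145 to 192. Mean bead numbers per array were 36.0 to 38.9 in WT and 39.4 to 40.7 in Fgf21-KO, so that arrays of the 2 genotypes did not overlap, and an array run that goes with genotype cannot be told apart from genotype. Of 10 adipocyte markers, 9 had a tested probe, and 8 of these were detected on all 16 arrays, Adipoq and Plin1 among them. The probe of Fabp4, an abundant fatty acid binding protein of fat cells, was detected on 10 of 16 arrays at a mean log2 level of 5.79. Fgf21 (ILMN_2710698) lay between 7.17 and 8.37 on the log2 scale in the WT pools and between 5.17 and 5.58 in the Fgf21-KO pools, without overlap. The first pool of the WT rosiglitazone group, replicate 1, stood apart from the other 7 pools. It scored 68.5 on a first principal component that held 48.2% of the variance, against -16.8 to -0.298 for the others. In that pool 8 of 8 tested smooth muscle markers lay above their range in the other 7 pools (8 of 10 listed were tested), and so did 5 of 7 tested epithelium markers (7 of 12 listed). The mean log2 level of the smooth muscle markers was 11.6 there and 8.14 to 8.94 in the other pools, and that of the epithelium markers was 8.31 against 5.63 to 7.50. No smooth muscle marker lay below its range there. Of 6 tested mast cell markers 5 lay above. Their mean level was 8.44 there but also 8.41 in WT rosiglitazone replicate 2, against 7.02 to 7.71 in the remaining pools. Markers of macrophages and of endothelium were low instead, with 4 of 6 below their range for each (mean levels of 9.52 against 9.79 to 10.04 and of 9.81 against 10.20 to 10.71). Pools of Fgf21-KO departed too, for other markers. In vehicle replicate 2, 7 of 8 tested liver markers lay above their range (mean level of 12.75 against 9.58 to 11.01). In rosiglitazone replicate 2, 9 of 9 tested mesothelium markers lay below (7.24 against 8.04 to 8.84). Differences that moved by over 1.5 times or changed sign without WT rosiglitazone replicate 1 are given below with both values, except for the less bright Pparg probes.

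SUMO2 and SUMO3 are the close paralogs that form SUMO chains, and their mRNAs were both low in this pool. The 250 bases before an annotated start of each gene are shown because the 2 mRNAs were low in the same pool, as described next. They were read from the RefSeq promoter table (GRCm38.p6), which held a window for 7 of the 8 genes and none for Sae1. The Sumo2 window is chr11:115536231-115536480 on the minus strand, and the Sumo3 window, at the first of its 3 annotated starts, is chr10:77605847-77606096 on the plus strand. Capitals mark 3 motifs, each searched on both strands, and no marked motif overlaps another of them. One is the GC box, spelled GGGCGG. Another is the CCAAT box, spelled as its name. The last is the half-site of many nuclear receptors, spelled AGGTCA.
Sumo2: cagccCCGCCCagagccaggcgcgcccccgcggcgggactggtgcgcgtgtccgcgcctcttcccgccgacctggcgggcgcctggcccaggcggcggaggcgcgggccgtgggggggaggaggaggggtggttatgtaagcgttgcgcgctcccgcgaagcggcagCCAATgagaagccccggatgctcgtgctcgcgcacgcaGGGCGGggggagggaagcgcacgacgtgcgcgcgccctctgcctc
Sumo3: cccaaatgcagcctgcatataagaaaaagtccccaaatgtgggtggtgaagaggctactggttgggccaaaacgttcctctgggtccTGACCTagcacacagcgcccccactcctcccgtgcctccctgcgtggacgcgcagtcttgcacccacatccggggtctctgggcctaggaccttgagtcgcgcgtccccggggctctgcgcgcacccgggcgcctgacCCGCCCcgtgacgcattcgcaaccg
The Sumo2 window held 2 GC boxes, 1 CCAAT box and 0 half-sites, and the Sumo3 window held 1 GC box, 0 CCAAT boxes and 1 half-site, read on the opposite strand as TGACCT. The other 2 Sumo3 windows, not shown, differed from it. One held 3 GC boxes and 0 half-sites, and the other 0 GC boxes and 2 half-sites. A GC box was present in 32.7% of all 32851 such windows, a CCAAT box in 33.8% and a half-site in 14.0%. Across the 10 windows of the members, 9 held a GC box, 2 a CCAAT box and 2 a half-site, both of the latter being windows of Sumo3. The full direct repeat bound by PPARG with its partner RXR, searched as AGGTCANAGGTCA, was in 0 of the 10 windows and in 0.0335% of all windows. A match of letters is a description of the window and not a site.

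Sumo2 was read by 1 probe (ILMN_2980331), detected on all 16 arrays. Its pools were at log2 11.97 and 12.11 in WT vehicle, 11.06 and 12.26 in WT rosiglitazone, 12.01 and 11.93 in Fgf21-KO vehicle, and 12.06 and 12.06 in Fgf21-KO rosiglitazone. WT rosiglitazone replicate 1 was the lowest pool and replicate 2 of the same group the highest, while the remaining pools lay between 11.93 and 12.11. In the non-normalized signals the 2 arrays of the low pool read 2591 and 3263, and the 2 arrays of replicate 2 read 5613 and 5693. The low pool was at 0.501 times the mean of the other 7 pools (a log2 difference of -0.997).

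Sumo3 was read by 2 probes, both detected on all 16 arrays. The brighter one (ILMN_2776230) was at log2 11.45 and 11.33 in WT vehicle, 10.26 and 11.39 in WT rosiglitazone, 11.45 and 11.42 in Fgf21-KO vehicle, and 11.51 and 11.57 in Fgf21-KO rosiglitazone. The other (ILMN_2776231) was at 11.27 and 10.97, 9.90 and 11.11, 11.19 and 11.05, and 11.16 and 11.09 in the same order of groups and pools. Both probes were lowest in WT rosiglitazone replicate 1, at 0.440 and 0.430 times the mean of the other 7 pools. On the brighter probe the Fgf21-KO rosiglitazone pools were the 2 highest of all, and this order did not hold on the other probe. Probe sequences were not used here, so whether these probes also read the paralog or related copies was not tested. The non-normalized signals of the brighter probe on the 2 arrays of the low pool were 1652 and 1714, against 2383 to 3687 on the other arrays.

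**Figure D1:**
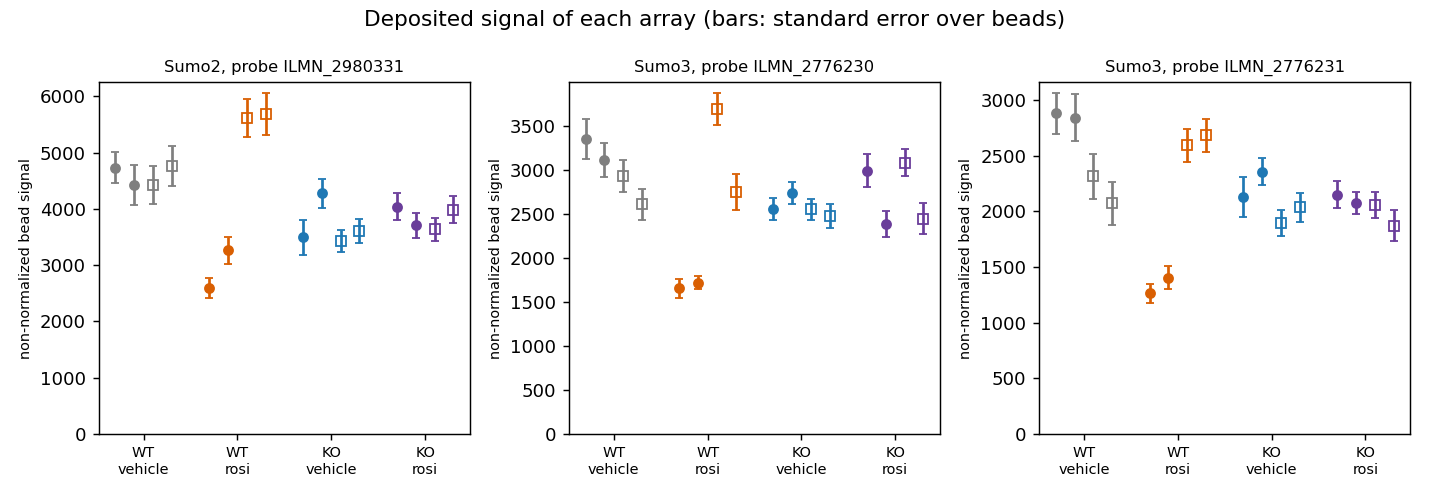
Non-normalized bead signal (vertical axis, linear scale from 0) of the Sumo2 probe and both Sumo3 probes on each of the 16 arrays, grouped by genotype and treatment. Filled circles are replicate 1, open squares replicate 2, and bars the standard error over the beads of an array. The filled WT rosiglitazone points (2591 and 3263 for Sumo2) lie below every other array of the same probe.

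Many other genes also departed in this pool. In it 7.53% of tested probes lay further below the other pools than Sumo2, and 5.39% lay further below than the brighter Sumo3 probe. Of all 9543 genes tested, 21.0% were below and 35.3% above their range in the other 7 pools there, against 8.41% to 16.1% below and 6.28% to 12.9% above in each of the other pools. Pparg itself differed by probe in this pool. Its brightest probe (ILMN_1221060) was at 13.13 there and at 13.09 to 13.59 elsewhere, while ILMN_1221594 was at 6.92 against 9.48 to 9.94, and ILMN_1221893 at 5.22 against 7.91 to 8.50. In whole tissue, fewer cells of a type and less of an mRNA per cell cannot be told apart. Mast cell markers were raised in WT rosiglitazone replicate 2 as well, as given above. The part of the raised smooth muscle, epithelium and mast cell markers, or of the lowered macrophage and endothelium markers, in the Sumo2 and Sumo3 levels of this pool was not tested.

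Sae1, the activating subunit that works with UBA2, had 3 probes. The brightest (ILMN_2423789), detected on all arrays, was at log2 12.89 and 12.77 in WT vehicle, 13.25 and 12.91 in WT rosiglitazone, 12.87 and 12.91 in Fgf21-KO vehicle, and 12.80 and 12.68 in Fgf21-KO rosiglitazone. It was highest in the pool in which Sumo2 and Sumo3 were lowest, at 1.34 times the mean of the other 7 pools. A probe of middle signal (ILMN_2982958), also detected on all arrays, was at 10.24 and 10.23, 10.16 and 10.29, 10.05 and 10.14, and 10.09 and 10.03 in the same order. It was not high there, at 1.005 times the other pools, but every Fgf21-KO pool was below every WT pool. The third probe (ILMN_2513895) was detected on 4 of 16 arrays, of which 3 were WT vehicle and 1 was Fgf21-KO vehicle, and was near background throughout, at 4.91 to 5.85. It entered the test only through vehicle arrays, mostly of WT, where it was brightest. Its differences between groups were therefore set in part by the filter, and nothing was read from them.

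The PIAS proteins are SUMO ligases that also bind transcription factors. Pias1 (ILMN_2737777) was at 10.26 and 10.38 in WT vehicle, 10.03 and 10.39 in WT rosiglitazone, 10.22 and 10.22 in Fgf21-KO vehicle, and 10.27 and 10.18 in Fgf21-KO rosiglitazone. Its WT rosiglitazone pools were the lowest and the highest of the 8. Pias3 was read by ILMN_1227889 at 9.41 and 9.53, 9.38 and 9.56, 9.55 and 9.46, and 9.62 and 9.33 in the same order, with all groups overlapping. Its other tested probe (ILMN_2631014) lay between 8.57 and 8.91, and the third (ILMN_3163495), detected on 2 of 16 arrays, was not tested. The 2 tested Pias3 probes did not follow each other over the 8 pools (Pearson r = -0.23).

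Senp2 and Senp6 encode proteases that remove SUMO. Senp2 (ILMN_1250929) was at 10.90 and 11.06 in WT vehicle, 11.11 and 10.87 in WT rosiglitazone, 10.92 and 10.98 in Fgf21-KO vehicle, and 10.90 and 11.08 in Fgf21-KO rosiglitazone, so that all groups overlapped. Both Senp6 probes (ILMN_1254100 and ILMN_2714855) were detected on 0 of 16 arrays, with signals of 116 to 191 and 117 to 176, and were not tested. Signals at background do not give the level of Senp6 mRNA, and whether these probes can read it was not tested. In all, 6 of the 8 genes and 10 of the 13 probes entered the tests.

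**Figure D2:**
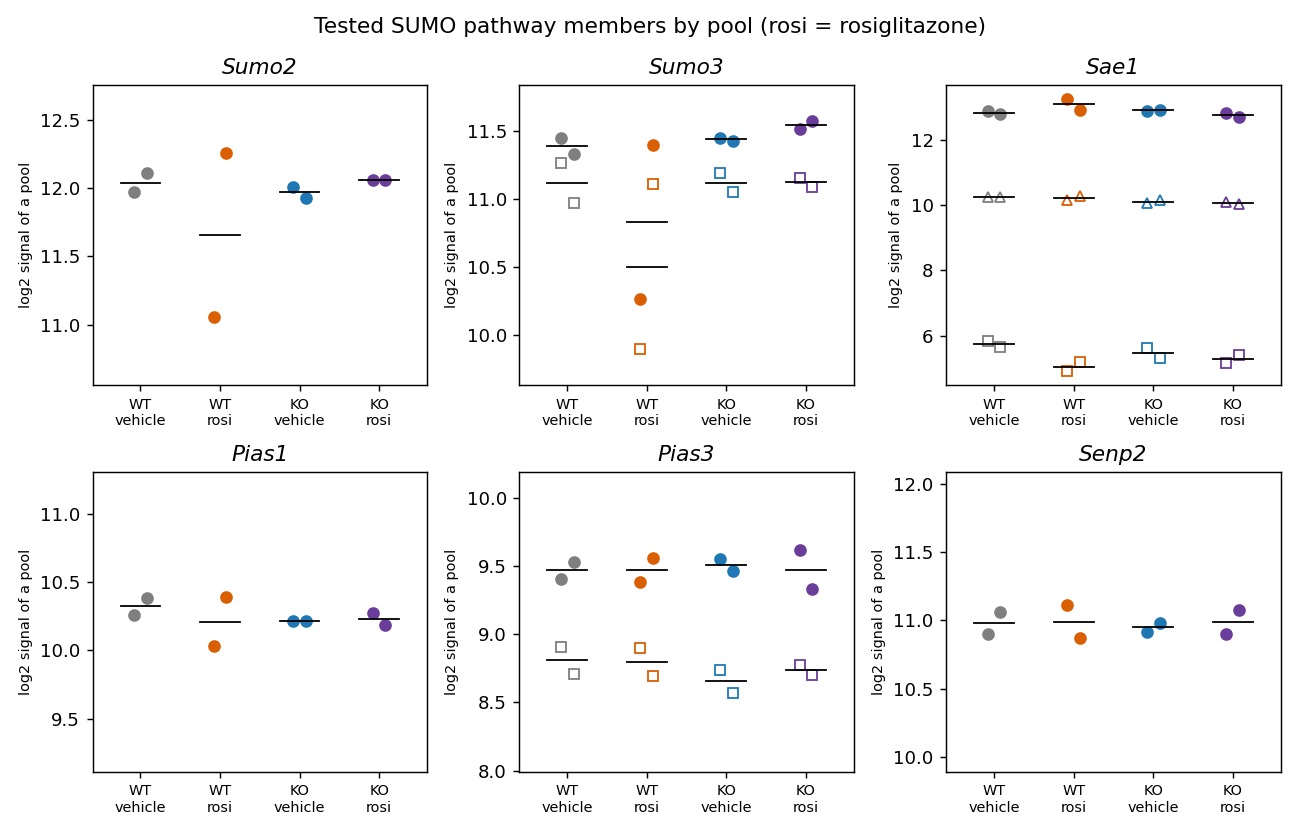
log2 signal of each pool (points) for the 6 tested genes in the 4 groups, with the mean of the 2 pools as a line; circles are the brightest probe and open symbols the other tested probes of a gene. Axes differ between panels, and Sumo2 and both Sumo3 probes are low in 1 of the 2 WT rosiglitazone pools, at 11.06, 10.26 and 9.90.

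The effect of rosiglitazone in WT fat was asked first. Of the 10 member probes, 0 passed the adjusted threshold, and 0% of all 13759 probes did, so the fit made no call at all in this comparison. At an unadjusted p under 0.05 there was 1 member probe, against 8.31% of all probes, and it was the dim Sae1 probe, from which nothing was read. Sumo2 differed by -0.38 (SE 0.35, limma adjusted p = 0.686) and Sumo3 by -0.56 (SE 0.33, limma adjusted p = 0.587) on the log2 scale, and the WT rosiglitazone pools enclosed those of WT vehicle for Sumo2. Without WT rosiglitazone replicate 1 the differences were 0.21 for Sumo2 and 0.00 for Sumo3 (limma adjusted p = 0.819 and 0.999). Pools were without overlap for 2 of the 10 member probes, the brightest and the dim one of Sae1, and for 34.9% of all probes. With replicate 1 as the group's only pool the differences of Sumo2 and Sumo3 were -0.98 and -1.13. That fit assumes that the lone pool varies like the other groups, and the other WT rosiglitazone pool was not low in either gene.

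Sae1 differed by 0.26 (SE 0.16, limma adjusted p = 0.590) on its brightest probe and by -0.02 (SE 0.13) on the middle one. Without WT rosiglitazone replicate 1 the brightest probe differed by 0.09 and the middle one by 0.05, and with that pool as the group's only one the brightest differed by 0.43. Pias1 differed by -0.11, Pias3 by 0.00 and Senp2 by 0.01. Without the same pool Pias1 was at 0.07, Pias3 at 0.09 and Senp2 at -0.11, so that Pias1 and Senp2 changed sign. The 95% intervals of the fold change were 0.712 to 1.20 for Pias1, 0.776 to 1.29 for Pias3 and 0.785 to 1.29 for Senp2, while that of Sumo2 was 0.431 to 1.36 and that of Sumo3 0.392 to 1.17. The median over the 6 genes was -0.06, beside 0.03 over all 9543 genes, and without that pool it was 0.08, beside -0.02.

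In Fgf21-KO fat the same treatment gave 0 member probes past the threshold, beside 0% of all probes. At an unadjusted p under 0.05 there were 0 member probes, beside 5.63% of all. The 6 genes differed by -0.15 (Sae1) to 0.11 (Sumo3). Sumo2 and Sumo3 were higher in both rosiglitazone pools than in both vehicle pools, by 0.09 (SE 0.35) and 0.11 (SE 0.33), but the other Sumo3 probe differed by 0.00 with overlapping pools. Both Sae1 pools were lower on the brightest probe. Pools without overlap were found for 3 of 10 member probes and for 44% of all probes, so such an order was common.

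Genotype was compared under each treatment. Under vehicle 0 member probes passed, beside 0% of all, and 0 had an unadjusted p under 0.05, beside 4.76% of all. The 6 genes differed by -0.11 (Pias1) to 0.06 (Sae1), with a median of 0.00 beside -0.01 over all genes. The 95% intervals of the Fgf21-KO over WT fold were 0.535 to 1.69 for Sumo2, 0.597 to 1.79 for Sumo3, 0.806 to 1.35 for Sae1, 0.716 to 1.21 for Pias1, 0.794 to 1.32 for Pias3 and 0.764 to 1.26 for Senp2. Pools were without overlap for 3 of 10 member probes, and for 42.9% of all probes. All 3 were lower in Fgf21-KO, as were 22.5% of all probes. They were Pias1 and the 2 less bright Sae1 probes. The dim Sae1 probe was near background and passed the filter mostly through WT vehicle arrays, so nothing was read from its order.

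Under rosiglitazone 0 member probes passed, beside 0% of all, and 0 had an unadjusted p under 0.05, beside 15.9% of all. Sumo3 was 0.71 higher in Fgf21-KO (SE 0.33, limma adjusted p = 0.340), Sumo2 0.40 higher (SE 0.35, limma adjusted p = 0.544), and Sae1 differed by -0.34 (SE 0.16, limma adjusted p = 0.336). Without WT rosiglitazone replicate 1 these became 0.15, -0.20 and -0.17 (limma adjusted p = 0.658, 0.560 and 0.618), so that Sumo2 changed sign. With that pool as the group's only one they were 1.28, 1.00 and -0.51, so these sizes rest on 1 pool. Pias1 differed by 0.02, Pias3 by 0.00 and Senp2 by -0.0007, and without WT rosiglitazone replicate 1 by -0.16, -0.09 and 0.12. Pools were without overlap for 3 of 10 member probes, beside 46.3% of all.

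**Figure D3:**
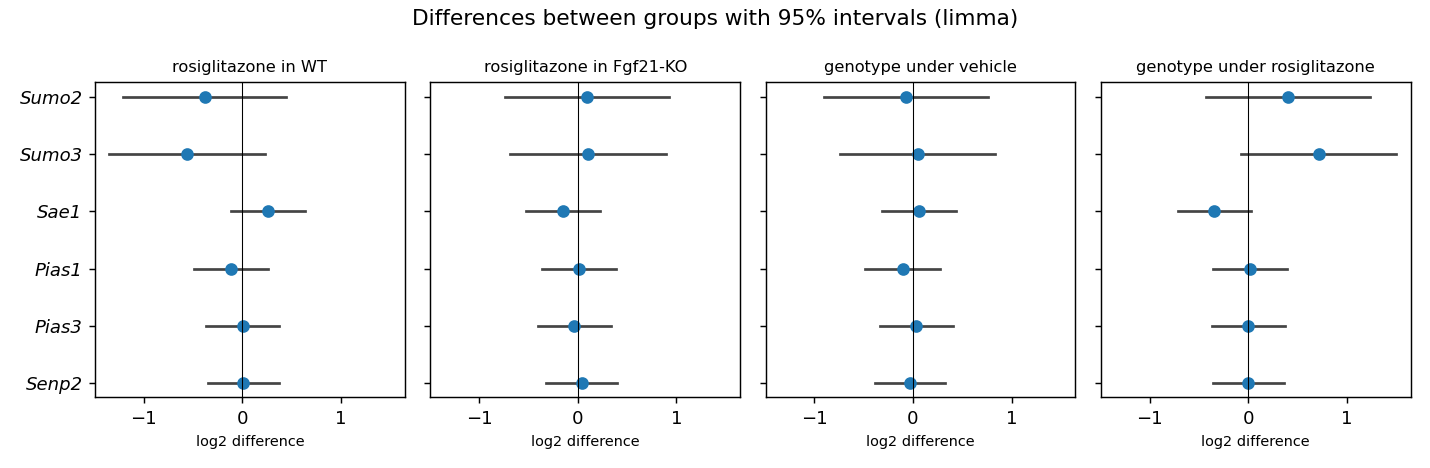
log2 difference (points) with its 95% interval (lines) for the brightest probe of each of the 6 tested genes in the 4 group comparisons; differences are rosiglitazone minus vehicle or Fgf21-KO minus WT. Intervals of Sumo2 and Sumo3 are the widest, and each interval in the plot includes 0.

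Whether the drug effect differed by genotype was asked with the interaction. No member passed (0 probes, beside 0% of all), 0 had an unadjusted p under 0.05 (beside 4.95% of all), and the smallest adjusted p among members was 0.827 by limma. The estimates were 0.67 (SE 0.47) for Sumo3, 0.47 (SE 0.49) for Sumo2 and -0.41 (SE 0.22) for Sae1, and without WT rosiglitazone replicate 1 they were 0.10, -0.12 and -0.23. Averaged over treatments, 0 member probes passed for genotype, beside 0.0218% of all (3 probes). The Sae1 probe of middle signal differed by -0.15 there (SE 0.089, limma adjusted p = 0.453), at a fold of 0.899, and was lower in 4 of 4 Fgf21-KO pools than in any WT pool, an order that 5.4% of all probes showed, or 9.96% in either direction. It differed by -0.19 without WT rosiglitazone replicate 1. The brightest Sae1 probe differed by -0.14 (SE 0.11) with overlapping pools, and by -0.05 without that pool. Sumo2 and Sumo3 differed by 0.17 and 0.38 between genotypes on average, and by -0.13 and 0.10 without it. Averaged over genotypes, 0 member probes passed for rosiglitazone, beside 0% of all. One member probe had an unadjusted p under 0.05, beside 8.75% of all, and it was again the dim Sae1 probe. Sumo2 and Sumo3 differed by -0.15 and -0.23 with rosiglitazone on average, and by 0.15 and 0.05 without WT rosiglitazone replicate 1.

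Across the 8 pools Sumo2 and Sumo3 followed each other (Pearson r = 0.94) and ran opposite to Sae1 (r = -0.86 and -0.90). Without WT rosiglitazone replicate 1, over 7 pools, these values were -0.27, -0.07 and -0.47, so the likeness of Sumo2 and Sumo3 rested on 1 pool. The 2 Sumo3 probes had r = 0.98 over 8 pools and 0.42 over 7. Sumo2 and Pias1 had r = 0.86 over 8 pools and 0.76 over 7, while Sumo3 and Pias1 had 0.66 and -0.75. Sae1 and Senp2 had r = 0.21 over 8 pools and -0.77 over 7. The genes of most similar pattern among 9542 were Smu1 and Mfsd11 for Sumo2 (both r = 0.99), Efr3a and Coq10b for Sumo3 (r = 0.997 and 0.996), and Cep135 and Hgh1 for Sae1 (both r = 0.98). They were Clns1a and Fbxl14 for Pias1 (both r = 0.97), Cog3 and Wls for Pias3 (r = 0.94 and 0.93), and Srrm2 and Gripap1 for Senp2 (both r = 0.95). Without that pool the values were 0.80 and 0.80 for Sumo2, 0.89 and 0.88 for Sumo3, and 0.94 and 0.93 for Sae1. All points share the normalization and the 8 pools, and with so many genes compared, high values arise in any such ranking.

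The rest of the pathway was read through 20 tested genes of a list of 24, and the other 4 were not analysed here. In each of the 7 comparisons 0 of 20 passed in either direction. Their median difference under rosiglitazone was 0.29 for Fgf21-KO minus WT, with 13 higher and 7 lower, beside -0.05 over all genes, and 0.00 for rosiglitazone in Fgf21-KO. For rosiglitazone in WT it was -0.09 (7 higher, 13 lower), beside 0.03. The genotype median under rosiglitazone was 0.13 (12 higher, 8 lower) without WT rosiglitazone replicate 1, beside 0.01 over all genes. Rnf111, a ubiquitin ligase that recognises SUMO chains, was 6.96 in WT vehicle and 6.24 in WT rosiglitazone as group means (difference -0.73, SE 0.21, limma adjusted p = 0.553). Without WT rosiglitazone replicate 1, where it was below all other pools, the difference was -0.44 (limma adjusted p = 0.601). Desi2, of the family of DeSI isopeptidases, had group means of 6.30 in WT vehicle and 5.62 in both WT rosiglitazone and Fgf21-KO vehicle (differences -0.68 and -0.68, limma adjusted p = 0.566 and 0.903). Rwdd3, which enhances SUMO conjugation, was 6.67 in vehicle and 7.48 in rosiglitazone pools of Fgf21-KO (difference 0.82, SE 0.23, limma adjusted p = 0.811). Ranbp2, a SUMO ligase of the nuclear pore, differed by 0.32 there (limma adjusted p = 0.919). The Ranbp2 probe was as dim as the dim Sae1 probe (mean log2 levels of 5.40 and 5.39), so nothing was read from its difference. Desi2 was also dim, at a mean of 5.89.

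Senp5, a SUMO protease, was higher in Fgf21-KO on average over treatments by 0.42 (SE 0.10, limma adjusted p = 0.168) without overlap of pools, and by 0.49 under vehicle (limma adjusted p = 0.874). Nsmce2, the SUMO ligase of the SMC5/6 complex, differed by -0.29 on average (SE 0.087, limma adjusted p = 0.238), and by -0.39 under rosiglitazone (limma adjusted p = 0.246). Under rosiglitazone Rnf111 was 0.64 higher in Fgf21-KO (limma adjusted p = 0.261), and 0.35 higher without WT rosiglitazone replicate 1. Its interaction estimate was 1.00 and that of Desi2 1.07 (limma adjusted p = 0.827 for both). Averaged over genotypes, Rwdd3 differed by 0.60 with rosiglitazone (limma adjusted p = 0.513) and Pml, whose protein organises SUMO-rich nuclear bodies, by -0.19 (limma adjusted p = 0.663).

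In WT rosiglitazone replicate 1, 7 of the 20 genes were below and 4 above their range in the other 7 pools, beside 21.0% below and 35.3% above over all genes. Among the 6 members 3 were below (Sumo2, Sumo3, Pias1) and 2 above (Sae1, Senp2). The lowest of the 20 was Rnf4, a ubiquitin ligase that targets SUMO-bearing proteins, chosen here after its values were seen. It was at 9.75 in that pool against 11.05 to 11.51 in the others (ILMN_1240883). Rangap1, a classic SUMO target at the nuclear pore, was highest, at 12.14 against 11.46 to 11.60. Among 18 tested genes of other ubiquitin-like modifier systems, 6 were below and 7 above, so departures in both directions were also present outside the SUMO pathway in this pool.

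**Figure D4:**
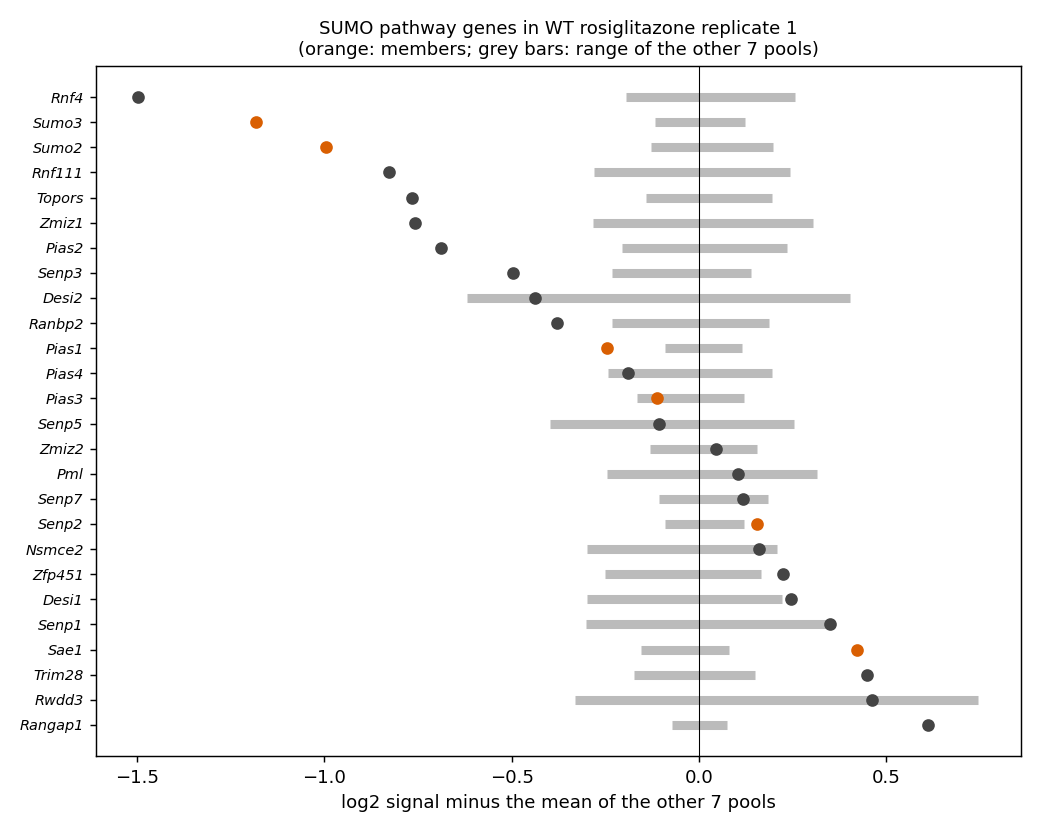
log2 signal in WT rosiglitazone replicate 1 minus the mean of the other 7 pools (horizontal axis) for the 6 tested members (orange) and 20 other SUMO pathway genes (dark grey), with the range of the other 7 pools as grey bars. Rnf4 (-1.50), Sumo3 (-1.18) and Sumo2 (-0.997) lie furthest below their bars, and Rangap1 (0.61) furthest above.

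PPARG and its co-regulators were read through 11 tested genes of 16, and 0 passed in each comparison. Pparg (ILMN_1221060) was at 13.49 and 13.59 in WT vehicle, 13.13 and 13.52 in WT rosiglitazone, 13.23 and 13.48 in Fgf21-KO vehicle, and 13.24 and 13.09 in Fgf21-KO rosiglitazone. It differed by -0.18 between genotypes under vehicle (SE 0.18, limma adjusted p = 1) and by -0.20 with rosiglitazone over both genotypes (limma adjusted p = 0.678), the latter being -0.10 without WT rosiglitazone replicate 1. The other 2 Pparg probes differed by -0.35 and -0.26 between genotypes under vehicle. With rosiglitazone over both genotypes they differed by -0.72 and -0.76 (SE 0.59 and 0.64). Both were far lower in WT rosiglitazone replicate 1, and their values without that pool are not given here. The co-activator Ppargc1a was 0.45 higher with rosiglitazone in WT (0.29 without that pool) and 0.48 higher in Fgf21-KO (limma adjusted p = 0.587 and 0.900). It was 0.27 higher in Fgf21-KO under vehicle (limma adjusted p = 1). With rosiglitazone over both genotypes it was 0.47 higher (SE 0.15, limma adjusted p = 0.520). The Ppargc1a probe was dim, with group means of 5.40 to 6.15, so these differences lie close to background. Tbl1x, a subunit of the corepressor complex of NCOR, differed by -0.30 between genotypes under rosiglitazone and by -0.28 with rosiglitazone in Fgf21-KO (limma adjusted p = 0.315 and 0.896). Med1, a Mediator subunit that binds PPARG, differed by -0.38 between genotypes under rosiglitazone (limma adjusted p = 0.349), and the acetyltransferase Ep300 by -0.57 with rosiglitazone in WT (limma adjusted p = 0.589) and by -0.0001 without WT rosiglitazone replicate 1.

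The authors' deposited table lists Sae1 once, with a Fgf21-KO over WT ratio of 0.771 under vehicle (p = 2.37e-05, not past the authors' Bonferroni threshold). In the authors' deposited table the rosiglitazone ratio of Sae1 is 1.112 in WT and 0.961 in Fgf21-KO. The WT mean of 1415.47 for Sae1 in the authors' deposited table matches the mean of the 4 non-normalized WT vehicle signals of ILMN_2982958, 1415.49, and over 2472 rows of that table that share a gene with a probe, 99.5% matched a non-normalized mean within 0.1% while 0.0405% matched a normalized one. The ratio of this Sae1 probe was 0.771 from the non-normalized signals and 0.914 from the authors' normalized ones. The median genotype ratio over all 2661 rows of the authors' deposited table is also 0.771, and 92.4% of its ratios are under 1. The ratio listed for Sae1 lay at the median of that table. Scaling the arrays to a common distribution brought this ratio closer to 1. That table holds 2661 rows, fewer than the 25697 probes on the array. The choice of its rows was not examined here, so its median need not be that of all probes. How those p-values treated the 2 arrays of a pool is not given in the sources used here.

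In the authors' deposited table Rnf4 has 2 features with WT ratios of 0.687 and 0.681, both past the authors' threshold, and its brightest probe was low in 1 of the 2 WT rosiglitazone pools, as given above. The median WT rosiglitazone ratio in the authors' deposited table is 1.113. The authors' deposited table also lists 2 features of Nsmce2 with Fgf21-KO over WT ratios under vehicle of 0.737 and 0.683 (p = 8.34e-07 and 4.94e-07), both past the authors' threshold, beside the median of 0.771. After the quantile normalization used here, the group means of the brightest Nsmce2 probe were log2 11.25 in WT vehicle and 11.06 in Fgf21-KO vehicle. Single features of Pml and Senp7 in the authors' deposited table have ratios of 0.784 and 0.763, not past the authors' threshold.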

How the data were processed

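Total RNA of pooled epididymal fat was hybridised to Illumina MouseRef-8 bead arrays. Per the file headers, the non-normalized table that the authors deposited lists an intensity (mean bead signal) with its detection p-value, bead number and bead standard error. A second deposited table holds normalized intensities. The authors' deposited statistics table gives group mean intensities, ratios of means and p-values, and the bead numbers and standard errors are deposited as other values. Of the columns of the per-sample tables, 48 were not used.

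With limma 3.58.1 in R 4.3.3, the background was removed by nec from the detection p-values (offset 16), log2 values were quantile normalized, and the 2 arrays of each pool were averaged. Of 25697 probes, the 13759 (9543 genes) with detection p at most 0.05 on 4 or more of 16 arrays were tested. Symbols came from the platform annotation, which gave 1 symbol for 23978 probes, none for 1719 and several for 0. Of these, 23962 were matched by Entrez ID to the RefSeq gene table. lmFit and eBayes estimated 4 group means for each probe, and 7 contrasts were taken. Tests were two-sided, with Benjamini-Hochberg adjustment across the 13759 probes and a threshold of 0.05. The fit was also run on simulated data in which all pools shared 1 spread for each probe. Those data held no pool that stands apart, so they do not test that case.

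Each gene was represented by its brightest tested probe. Every probe of the members was to be named, with Fgf21 and Pparg. From the lists of other SUMO pathway genes and PPARG co-regulators, genes past the threshold in a comparison were to be named, or else the 2 of smallest p. Genes of like pattern were the 2 of highest Pearson correlation with each member. The members, lists and tests were chosen with earlier results of these data known. Alternatives changed the background correction, scaling, probe filter, handling of repeat arrays, variance model, groups fitted and replicate term, and left out each pool. A fit with pool weights was added after the data were seen. The number of pools limits the precision.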

Additional observations from a re-analysis of the deposited data

How the results depend on the processing

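For the 6 tested members, 20 alternative settings and the other tested probes gave 850 differences, of which 92 had the opposite sign to the value reported and 11 passed the threshold. All 11 came from Sumo2, Sumo3 or Sae1 in the fit without WT rosiglitazone replicate 2, in which replicate 1 stood alone for its group. When each pool was left out in turn, the number of member probes called ran from 0 to 4 for rosiglitazone in WT, for genotype under rosiglitazone and for rosiglitazone over both genotypes, and from 0 to 3 for the interaction and for genotype over both treatments. Over all probes the counts ran from 0 to 2716 for rosiglitazone in WT, 0 to 3403 for genotype under rosiglitazone, 0 to 1704 for the interaction, 0 to 2782 for genotype over both treatments and 0 to 1852 for rosiglitazone over both genotypes. All the highest counts came without WT rosiglitazone replicate 2, and without replicate 1 of that group 0 member probes were called. Under every other setting 0 member probes were called.

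Calls over all probes moved as follows, with the cause not tested. For rosiglitazone in WT (0 reported) there were 1 with offset 50, with median scaling and with only probes detected on all 16 arrays, and 2 without background correction, with the authors' normalized table and with trend and robust fitting. For genotype under vehicle (0 reported) there were 2 with offset 50 and with probes detected on all arrays, 3 without background correction, with the authors' table and with trend and robust fitting, and 9 with pool weights. For genotype under rosiglitazone (0 reported) there were 5 with offset 50, 57 with median scaling, 13 with trend and robust fitting, 2 with only the groups compared, and 1 without background correction, with the authors' table and with probes detected on all arrays. For genotype over both treatments (3 reported) there were 13 with offset 50, 6 without background correction and with the authors' table, 26 with median scaling, 5 without the filter, 9 with probes detected on all arrays, 39 with trend and robust fitting, and 1 with pool weights. With all arrays fitted and the pool as a random block (consensus correlation 0.45) the counts were 61, 13, 41, 666, 22, 535 and 20 for rosiglitazone in WT, rosiglitazone in Fgf21-KO, genotype under vehicle, genotype under rosiglitazone, the interaction and the 2 averaged comparisons, with 0 member probes in each.

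With the replicate number as a block, 0 probes were called in every comparison, against 3 for genotype over both treatments without it. Residuals of same-numbered pools correlated from -0.102 to 0.273, so the numbers were not taken to pair the pools. For Sumo3 under rosiglitazone the blocked genotype difference was 0.71 (SE 0.32, limma adjusted p = 0.329).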
